A study of Mus musculus with 550 samples.

Results

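The genes described here are type I interferon-stimulated genes, a set of 35 antiviral and regulatory genes listed by name. Members were found through probe sets of the array annotated to a single member gene. Where a gene had several such probe sets, the probe set of the highest mean in an organ stood for it there. In this way 31 of the 35 genes were measured, among 17097 genes in all, and Isg15, Oas1a, Ifi44 and Bst2 had no such probe set. The measured members include the tetratricopeptide genes Ifit1, Ifit2 and Ifit3, the oligoadenylate synthetase family (Oas2, Oas3, Oasl1, Oasl2), the transcription factors Irf7, Irf9 and Stat2, and the cytosolic RNA sensors Ddx58, Ifih1 and Dhx58.

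The 550 arrays held RNA of C57Bl/6 mice from 7 organs, taken 6 or 12 h after a single dose: kidney (77 arrays), jejunum (76), mesenteric lymph nodes (88), inguinal lymph nodes (73), spleen (72), brain (86) and whole blood (78). Mice had received dimethyl fumarate (DMF) at 100 mg/kg (the lower dose) or 179.2 mg/kg (the higher dose), calcium, magnesium and zinc salts of monoethyl fumarate (MEF salts) at 79.2 mg/kg, 100 mg/kg DMF together with 79.2 mg/kg MEF salts (the combination), or the hydroxypropyl methylcellulose vehicle alone. Untreated (naive) mice were taken at 12 h only, and the 77 groups held 3 to 8 arrays each. All groups were of the wild-type strain, and the labels gave no age or sex. The number that closes an array's title recurs across organs and is read here as the animal. Values are log2 levels, so a difference of 1 is a 2-fold difference.

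Type I interferons signal through a shared receptor and the kinases Jak1 and Tyk2. Stat2 and Irf9 then act in a complex that binds interferon-stimulated response elements in front of the genes described here. Low, continuous interferon signalling keeps many of these genes expressed in uninfected tissue, most of all in lymphoid organs and the gut. Irf7 raises further interferon production, Usp18 and the Parp9 and Dtx3l pair act on the signalling pathway itself, and Oas, Mx, Ifit, Rsad2 (viperin) and Eif2ak2 (PKR) act against viral RNA or protein synthesis.

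The response element was looked for in the promoters of the members, because it is the feature that the set is known to share. RefSeq promoters of mouse build GRCm38.p6, 250 bases before to 50 bases after the annotated start, were at hand for 26 of the 35 listed genes. The motif searched was GAAA, any 2 bases, then GAAA, on either strand, with overlapping matches counted. It stood in the promoter of 14 of the 26 members (53.9%) and of 1079 of all 27025 genes with a promoter of that length in the table (3.99%). It stood more than once in 5 of the 26 (19.2%) against 72 of all genes (0.266%). The promoters of Irf7, Irf9, Oasl1, Oasl2, Ifit2, Isg20, Xaf1, Dtx3l, Herc6, Cmpk2, Ifi35 and Ifi44 held no match to these letters within this window. The stretches below belong to members called in kidney, jejunum, inguinal lymph nodes or spleen. They are written 5′ to 3′ on the strand of the gene, and capitals mark the motif or its complement. The Ifit1 stretch lies at chr19:34640773-34640825 on the plus strand, 116 to 64 bases before the start. That of Ifit3 lies at chr19:34583361-34583428 on the plus strand, 168 to 101 bases before the start. That of Rsad2 lies at chr12:26456551-26456584 on the minus strand, 132 to 99 bases before the start. That of Stat2 lies at chr10:128270264-128270297 on the plus strand, 234 to 201 bases before the start. That of Oas3 lies at chr5:120777713-120777746 on the minus strand, 87 to 54 bases before the start.
Ifit1: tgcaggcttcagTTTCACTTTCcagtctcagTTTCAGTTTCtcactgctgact
Ifit3: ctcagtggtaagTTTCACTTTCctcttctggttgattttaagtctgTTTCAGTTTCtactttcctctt
Rsad2: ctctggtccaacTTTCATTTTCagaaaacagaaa
Stat2: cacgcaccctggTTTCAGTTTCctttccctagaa
Oas3: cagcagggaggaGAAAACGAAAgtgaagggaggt
Ifit1 and Ifit3 carry the motif in 2 copies each, and each copy has the same letters in both genes.

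The organs carried their own markers: the kidney uromodulin gene Umod lay between 11.45 and 13.09 in kidney, Fabp2 between 13.92 and 14.3 in jejunum, and the neuronal gene Snap25 between 12.79 and 13.46 in brain. The lowest value of an array, its floor, was 2.12 to 2.25. No member had a mean within 0.5 of the floor in inguinal lymph nodes or spleen. In kidney there were 3 such members (Oas3, Mx2, Ifi203), in jejunum 2 (Mx2, Ifi203), in mesenteric lymph nodes and blood 1 each (Mx2), and in brain 5 (Oasl1, Oas3, Mx2, Dhx58, Ifi203), and small changes of these members carry little information. Floors and array medians differed between organs and also between the times of an organ, so levels are compared only within an organ and time. The arrays hold whole organs, so fewer cells of a type and less RNA per cell cannot be told apart. Nothing beyond the numbers in the titles says that samples came from separate animals, and p-values measure the spread between these samples.

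Over the 56 comparisons of a dosed group with the vehicle of the same organ and time, changes of the interferon-stimulated genes were few and mostly downward. A member was called where its Benjamini-Hochberg adjusted p over all 17097 genes was below 0.05 in limma. Of 1736 member tests 79 passed, 6 higher and 73 lower than vehicle, and they lay in 21 of the 56 comparisons. Over all genes 3.59% of the tests in these comparisons were called in either direction and 1.48% lower, against 4.21% of the member tests lower. The lower DMF dose gave no call in 434 tests with limma, with 36 at an unadjusted p under 0.05, where 0.452% of all gene tests were called higher and 0.285% lower. The higher dose gave 52 calls, 5 higher and 47 lower, against 5.05% and 2.62% of all gene tests. The MEF salts gave 11, 1 higher and 10 lower, against 0.955% and 1.31%. The combination gave 16, none higher and all lower, against 2% and 1.7%. Of these calls 20 lay in inguinal lymph nodes at 12 h and were lost without vehicle animal 1. That left 59 in all, 53 of them lower, with 33 calls after the higher dose and 15 after the combination. The comparisons of an organ and time share their vehicle arrays. The median change of the 31 members ranged from −0.96 to 0.20, while that of all genes stayed between −0.01 and 0.01. The lowest was that of the higher dose in inguinal lymph nodes at 12 h, with vehicle animal 1 included.

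**Figure D1:**
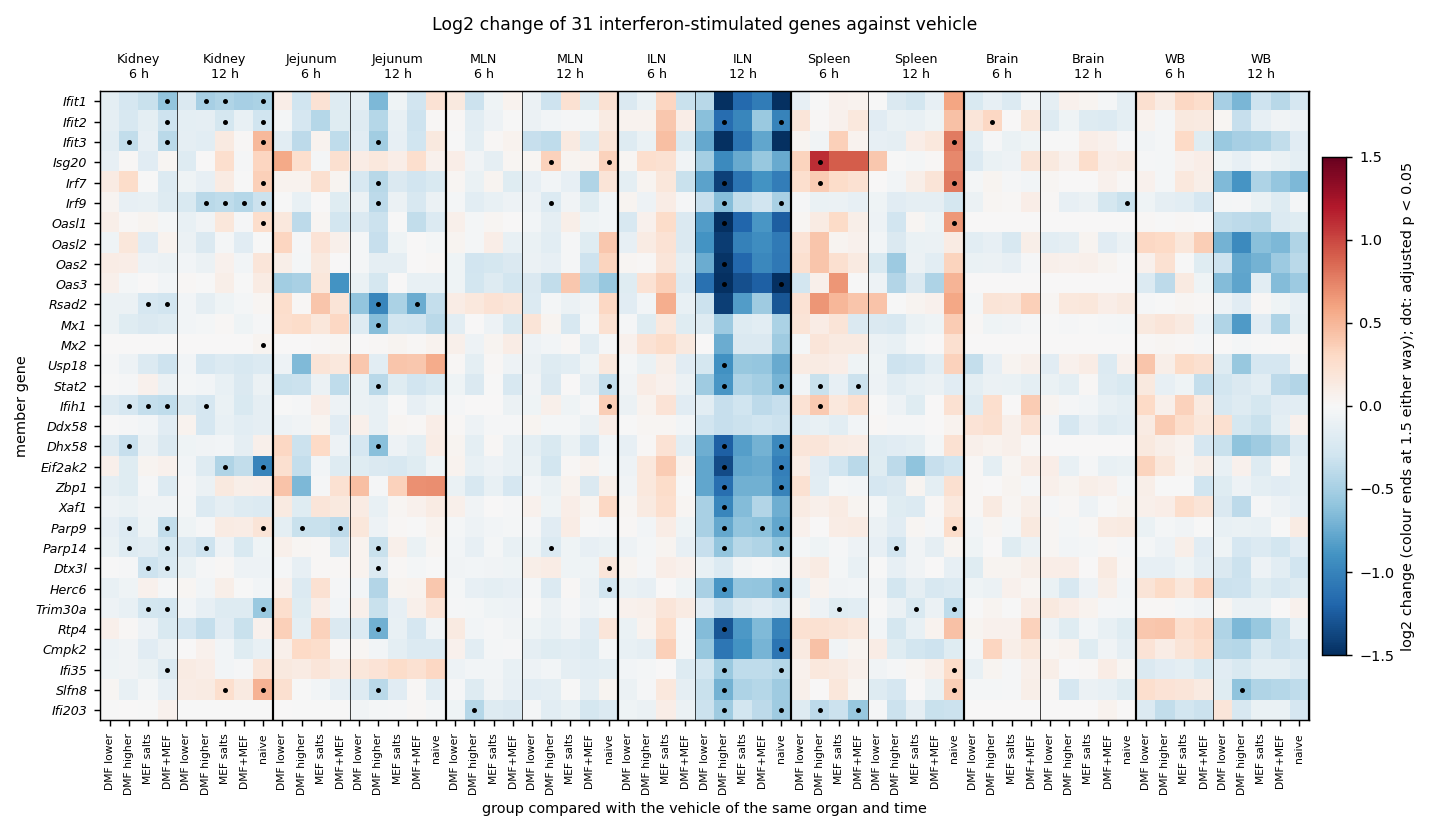
Log2 change of each of the 31 measured members (rows) against the vehicle group of the same organ and time, for the 4 dosed groups and the naive mice (columns), with a dot where the adjusted p was below 0.05. Blue is lower than vehicle: the 73 lower calls lie mostly in kidney, in jejunum at 12 h and in inguinal lymph nodes (ILN) at 12 h, and columns of mesenteric lymph nodes (MLN), brain and whole blood (WB) hold few dots.

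The poly-ADP-ribosyltransferase gene Parp14 was called lower most often, in 7 comparisons of 5 organs (kidney, jejunum, both lymph nodes and spleen). Irf9, the DNA-binding part of the interferon-activated complex, was called lower in 6 comparisons of 4 organs. Parp9, which acts with the ubiquitin ligase Dtx3l, was called lower in 6 comparisons of 3 organs. Rsad2, Stat2, Ifih1, Trim30a and Ifi203 were called lower in 4 comparisons each. The counts of Parp14, Irf9, Parp9, Stat2 and Ifi203 include calls in inguinal lymph nodes at 12 h. Those calls were lost without vehicle animal 1. With only the 2 groups of a comparison in the fit, of the 7 calls of Parp14 only that in kidney at 12 h was kept (adjusted p = 0.0124). Of the calls of Irf9 only those in kidney were then kept. Of those of Parp9 only the call in kidney at 6 h after the combination was kept (adjusted p = 0.00208). Oasl2, Mx2, Ddx58 and Cmpk2 were called in none of the 56. Isg20, an exonuclease, was called higher in 2 comparisons and lower in none.

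In kidney at 6 h the members that changed were all lower than vehicle: 5 after the higher DMF dose, 4 after the MEF salts and 10 after the combination. Over all genes 9.99%, 2.98% and 6.93% were called lower in these comparisons, in the same order. The combination had the largest median change of the members in kidney, −0.20, with 26 of 31 below 0, against −0.07 for the higher dose and −0.08 for the salts.

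Ifit3, which binds and steadies Ifit1 on foreign RNA, lay between 9.36 and 9.74 (median 9.59) on the 7 vehicle arrays of kidney at 6 h. It lay between 9.10 and 9.33 (median 9.21) on the 8 arrays of the higher DMF dose and between 9.0 and 9.46 (median 9.12) on the 7 of the combination. The higher dose lay wholly below vehicle, and the combination overlapped it through its highest array. The fall was 0.36 ± 0.08 (SE, adjusted p = 0.000425) after the higher dose, from 9.58 ± 0.12 (SD, n = 7) to 9.22 ± 0.09 (SD, n = 8), and 0.41 ± 0.09 (adjusted p = 0.000307) after the combination. Ifit3 on the MEF salt arrays spanned 9.35 to 9.61 and did not pass.

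Parp9 lay between 7.40 and 7.66 on the vehicle arrays, between 7.02 and 7.43 after the combination and between 7.04 and 7.77 after the higher dose. It fell by 0.37 ± 0.08 after the combination (adjusted p = 0.000363) and by 0.21 ± 0.07 after the higher dose (adjusted p = 0.0316). The higher-dose group also held animal 68, at 7.77 above every vehicle array. The RNA sensor Ifih1 (MDA5) fell in all 3 groups, by 0.25, 0.36 and 0.38 in the order above, and after the MEF salts its arrays (6.87 to 7.12) lay wholly below vehicle (7.15 to 7.60). Dtx3l after the MEF salts, 9.32 to 9.55, also lay wholly below vehicle, 9.66 to 9.85 (fall 0.31 ± 0.07, adjusted p = 0.00182).

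Of the fixed members, Ifit1 fell by 0.59 ± 0.16 after the combination (adjusted p = 0.00738), from 5.98 ± 0.26 (SD, n = 7) to 5.39 ± 0.43 (SD, n = 7), the largest change of a called member in kidney at 6 h. Ifit2 fell by 0.31 ± 0.10 and Trim30a by 0.29 ± 0.08 in the same group, and the other called members there fell by 0.22 to 0.28 (Rsad2, Parp14, Dtx3l, Ifi35). After the MEF salts Rsad2 fell by 0.25 ± 0.06 and Trim30a by 0.28 ± 0.08. After the higher dose Dhx58 fell by 0.35 ± 0.08 and Parp14 by 0.19 ± 0.07. Irf7, Oasl2 and Usp18 passed in none of the 8 dosed comparisons of kidney, with changes from −0.20 to 0.27, −0.21 to 0.18 and −0.31 to −0.02.

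Beside these members, 12 genes known to be induced by interferon-gamma were measured, and after the combination 2 of them fell at 6 h, the GTPases Iigp1 (by 0.58 ± 0.20) and Tgtp1 (by 0.62 ± 0.20). None of the 7 measured interferon genes was called in kidney at 6 h. The double-stranded RNA sensor Tlr3 fell by 0.18 ± 0.05 after the higher dose and by 0.18 ± 0.05 after the combination, 1 of 10 sensors and adaptors lower in each, and the kinase gene Tbk1 was called higher after the higher dose. The neutrophil genes S100a8 and S100a9 rose after the higher dose, by 1.34 ± 0.24 and 0.97 ± 0.28, as did the macrophage gene Cd68, by 0.51 ± 0.16. These were 2 of 5 neutrophil genes (list median 0.01) and 1 of 5 monocyte and macrophage genes (0.27). The T cell gene Cd8a (−0.32 ± 0.11, 1 of 4) and the NK cell gene Prf1 (−0.26 ± 0.08, 1 of 6) were lower. The mean level of the neutrophil list there was 4.09 to 4.94, against 3.85 to 4.08 in vehicle, and its part in the result was not tested. After the combination these 3 genes were not called, with changes of 0.51, 0.32 and 0.16. When only the 2 groups of a comparison entered the fit, 12 calls were made in kidney at 6 h in place of 19. After the combination Ifit1 (adjusted p = 0.0711), Trim30a (0.0664), Parp14 (0.0891), Dtx3l (0.157) and Ifi35 (0.296) then did not pass. Nor did Dhx58 (0.0605), Parp9 (0.119) and Parp14 (0.0791) after the higher dose.

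**Figure D2:**
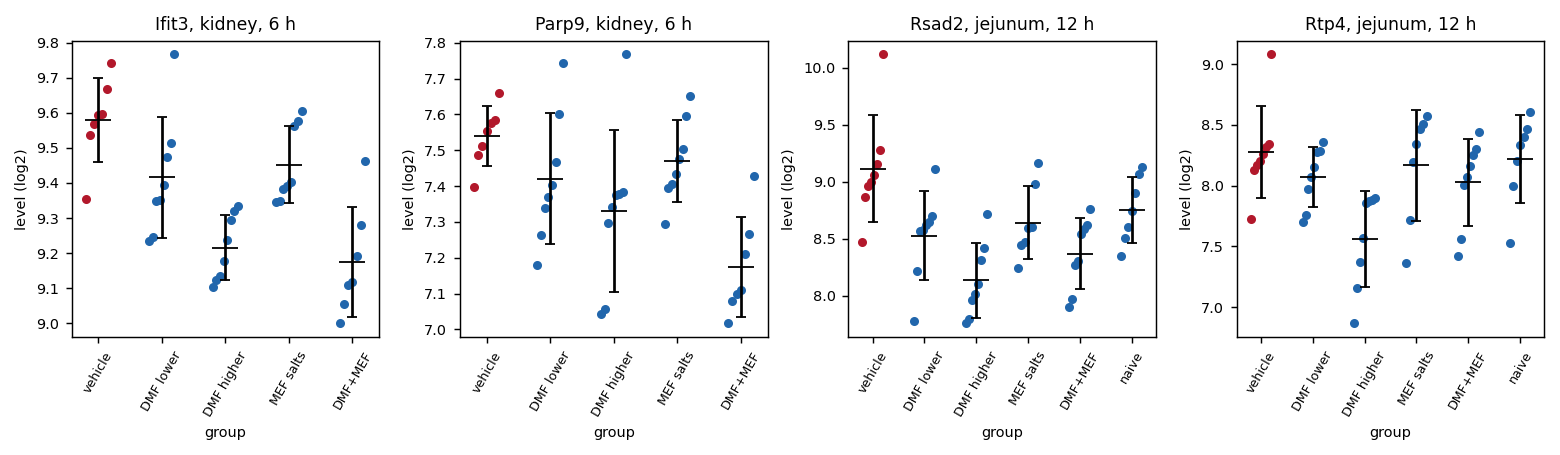
Log2 level on every array (points) with the group mean and SD (bar and whiskers) for Ifit3 and Parp9 in kidney at 6 h and Rsad2 and Rtp4 in jejunum at 12 h, by group. For Ifit3 the higher DMF dose spans 9.10 to 9.33, wholly below vehicle (9.36 to 9.74), while 1 vehicle array of jejunum stands highest for both Rsad2 (10.12) and Rtp4 (9.08).

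In kidney at 12 h the transcription factor subunit Irf9 was lower in every group but that of the lower DMF dose. Its 8 vehicle arrays lay between 6.28 and 6.76 (median 6.54), those of the higher dose between 5.97 and 6.22, of the MEF salts between 5.99 and 6.36, of the combination (n = 4) between 5.94 and 6.20 and of naive mice between 5.99 and 6.45. The higher dose and the combination did not overlap vehicle. The falls were 0.41 ± 0.08 after the higher dose (adjusted p = 0.000351), 0.38 ± 0.09 after the salts (adjusted p = 0.00073), 0.43 ± 0.10 after the combination (adjusted p = 0.00223) and 0.32 ± 0.09 in naive mice (adjusted p = 0.00187). Irf9 in naive mice was thus also below the vehicle group that every dosed group was compared with.

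The higher dose had 4 members lower at 12 h in kidney (2.71% of all genes were called lower), the MEF salts 4 lower and 1 higher (10.5% and 7.04%) and the combination 1 lower (5.6%). After the higher dose Parp14 fell by 0.30 ± 0.07 (adjusted p = 0.00172), its arrays at 7.0 to 7.45 below all of vehicle at 7.52 to 7.82. Ifit1 fell by 0.49 ± 0.15 after the higher dose, from 5.01 ± 0.40 (SD, n = 8) to 4.51 ± 0.15 (SD, n = 8), and by 0.46 ± 0.16 after the MEF salts. Ifih1 fell by 0.26 ± 0.08 after the higher dose. After the salts Eif2ak2 fell by 0.45 ± 0.14 and Ifit2 by 0.26 ± 0.09, and Slfn8, a Schlafen gene of lymphocyte growth control, rose by 0.25 ± 0.08. Every member called after the salts, and Ifit1 after the higher dose, was also called in naive mice in the same direction against this vehicle. With only the 2 groups in the fit Ifit1 did not pass after the higher dose (adjusted p = 0.08) or the salts (adjusted p = 0.0833), nor did Ifih1 (adjusted p = 0.131) or Ifit2 (adjusted p = 0.171). After the salts the B cell gene Cd79a (0.17 ± 0.05, 1 of 4) and the T cell gene Cd8a (0.32 ± 0.11, 1 of 4) were also higher, and the tubule genes Umod (−0.40 ± 0.07) and Slc12a1 (−0.29 ± 0.07), 2 of 4 kidney genes, lower. Their part in the result was not tested.

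Naive kidneys differed from vehicle in 11 members, 6 higher and 5 lower, where 26.8% and 19.2% of all genes were called. The share of the members called was below that of all genes in both directions. Eif2ak2 was 3.38 to 3.84 in the 6 naive mice and 4.10 to 5.12 in the 8 vehicle mice, a difference of −0.99 ± 0.14 (adjusted p = 2.2e-08) without overlap. Trim30a was also lower without overlap (−0.56 ± 0.08, 7.09 to 7.41 against 7.67 to 8.04). Slfn8 (0.52 ± 0.09), Ifit3 (0.49 ± 0.09) and Irf7 (0.36 ± 0.12) were higher in naive mice, while Ifit1 (−0.48 ± 0.16) and Ifit2 (−0.29) were lower. The set thus did not shift in 1 direction in naive kidneys, and its median change was −0.01. Ifnar1, the first chain of the type I receptor, was called higher after the higher dose and the MEF salts at 12 h, and Ifnar1, Ifnar2 and Ifngr1 in naive mice, 3 of 9 receptor and signalling genes.

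In jejunum the members fell at 12 h after the higher DMF dose, when 11 were called lower against 2.67% of all genes. The median change was −0.33 and 28 of 31 members were below 0. Rsad2 (viperin) lay between 8.47 and 10.12 (median 9.03) on the 8 vehicle arrays and between 7.76 and 8.72 (median 8.06) on the 8 of the higher dose. The overlap was small, and the vehicle array at 10.12, animal 5, stood above the rest. Rsad2 fell by 0.98 ± 0.18 (adjusted p = 0.00015), from 9.11 ± 0.47 (SD, n = 8) to 8.13 ± 0.33 (SD, n = 8), and after the combination by 0.75 ± 0.18 (adjusted p = 0.00789, the only call there, against 1.63% of all genes called lower).

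Rtp4, a transporter chaperone, lay between 7.73 and 9.08 in vehicle and between 6.87 and 7.90 after the higher dose, and fell by 0.72 ± 0.19 (adjusted p = 0.0109). The GTPase Mx1 fell by 0.64 ± 0.17, the sensor Dhx58 (LGP2) by 0.62 ± 0.19, Ifit3 by 0.52 ± 0.13 and Irf7 by 0.42 ± 0.13, from 8.67 ± 0.28 (SD, n = 8) to 8.25 ± 0.30 (SD, n = 8). The other 5 called members (Irf9, Stat2, Parp14, Dtx3l, Slfn8) fell by 0.20 to 0.41. Ifit1 (−0.68, the lowest of its 8 dosed comparisons) and Oasl2 (−0.34) did not pass after the higher dose at 12 h. Usp18 ranged from −0.66 to 0.41 over the 8 comparisons and passed in none.

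Markers of the distal gut differed between these groups of jejunum. The colon patterning genes Hoxb6 and Hoxb9 were lower after the higher dose (by 1.75 ± 0.34 and 2.08 ± 0.50), 2 of the 4 distal intestine genes, and the mean level of the list ran from 3.39 to 7.58 in vehicle against 3.18 to 4.97 after the higher dose. Animals 5, 6 and 7 of vehicle and 15 of the lower dose had a mean above 6. Without these 4 arrays 3 of the 11 members were still called lower after the higher dose: Rsad2 (−0.80, adjusted p = 0.0114), Ifit3 (−0.58, adjusted p = 0.0344) and Parp14 (−0.46, adjusted p = 0.0241). Without them Rtp4 was at −0.59 (adjusted p = 0.145), Dhx58 at −0.55 (adjusted p = 0.229), Mx1 at −0.28 (adjusted p = 0.515) and Irf7 at −0.24 (adjusted p = 0.502), and 28 of 31 members were below 0. Rsad2 after the combination then stood at −0.57 (adjusted p = 0.202). With only the 2 groups of the comparison in the fit, 5 members were called in jejunum at 12 h in all. The DNA-sensing adaptor Sting1 fell by 0.62 ± 0.18 and Tlr3 by 0.23 ± 0.07 after the higher dose at 12 h, 2 of 10 sensors and adaptors. None of the 12 interferon-gamma genes was called in jejunum.

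At 6 h Parp9 was the only member called in jejunum. It lay between 10.15 and 10.73 in vehicle, between 9.72 and 10.24 after the higher dose and between 9.71 and 10.57 after the combination (n = 5). It fell by 0.33 ± 0.09 (adjusted p = 0.0164, where 3.01% of all genes were called lower) and by 0.39 ± 0.11 (adjusted p = 0.0147, 2.36%). Neither call was made with only the 2 groups in the fit, or with a block made from the animal numbers (spans of 4 within runs of 12 numbers, whose meaning the labels do not give). Naive jejunum had no member called in limma, with 4 at an unadjusted p under 0.05, and a median change of 0.01.

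In inguinal lymph nodes at 12 h the interferon-stimulated genes had their largest differences from vehicle. The calls made there were lost without 1 vehicle animal, while the median changes shrank. The per-array median of the 31 members was 7.82, 8.38 and 8.56 in vehicle animals 8, 7 and 6, and 10.34 in vehicle animal 1. Irf7 read 7.60, 7.99 and 8.56 in animals 8, 7 and 6, and 10.34 in animal 1. Ifit1 read 6.82, 8.33 and 7.78 against 10.39, Oasl2 5.73, 6.61 and 7.35 against 9.53, and Usp18 9.31, 9.96 and 9.99 against 11.52. Animal 1 was above the mean of the other 3 vehicle animals by 0.48 to 2.97 over the members (median 1.89). For 28 of the 31 members it was the highest of all 36 arrays of this organ and time, as it was for 1375 of all 17097 genes.

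**Figure D3:**
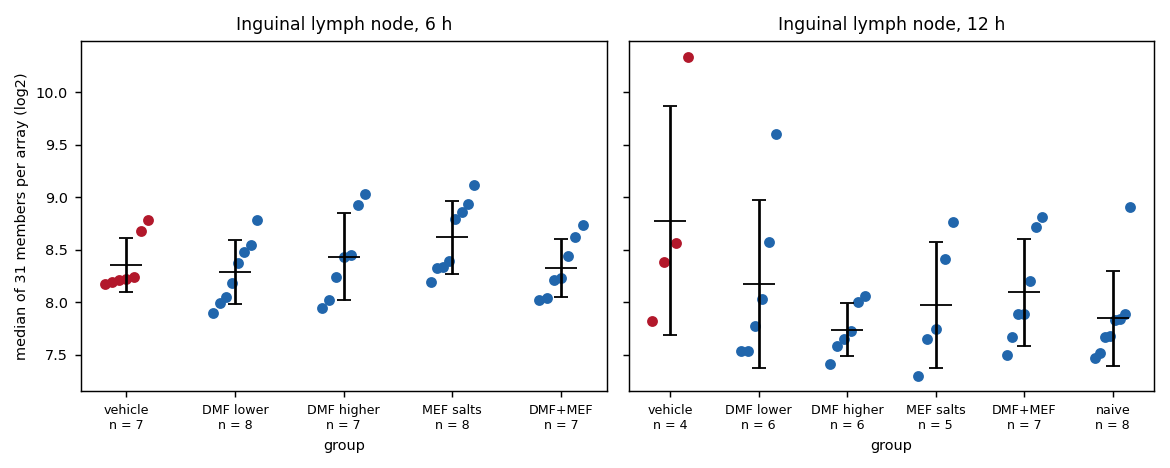
Median log2 level of the 31 members on each array (points) of inguinal lymph nodes at 6 h and 12 h, with the mean and SD over arrays, by group. At 12 h vehicle animal 1 stands at 10.34 above the other 3 vehicle arrays (7.82 to 8.56), and single arrays of other groups, such as animal 10 of the lower DMF dose (9.60), also stand high.

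With all 4 vehicle arrays, the median change of the members was −0.49 after the lower dose, −0.96 after the higher dose, −0.65 after the MEF salts, −0.57 after the combination and −0.76 in naive mice. After the higher dose 19 members were called lower (4.45% of all genes), after the combination 1 (1.74%) and in naive mice 13 (6.14%). The lower dose and the MEF salts had no call in limma, with 10 and 18 members at an unadjusted p under 0.05. Among the called members, the 6 largest falls after the higher dose were led by the RNA-activated synthetase Oas3 (−1.98 ± 0.55, adjusted p = 0.0124) and Oasl1 (−1.76 ± 0.48, adjusted p = 0.0113). Oas2 (−1.47 ± 0.45, adjusted p = 0.0217), Irf7 (−1.40 ± 0.44, adjusted p = 0.0289), Eif2ak2 (−1.34 ± 0.38, adjusted p = 0.0132) and Rtp4 (−1.28 ± 0.40, adjusted p = 0.0249) followed. Of these 6, Irf7, Oas2 and Rtp4 did not overlap: Irf7 lay between 6.48 and 7.55 on the 6 arrays of the higher dose, all below the lowest vehicle array at 7.60. Usp18 fell by 0.91 ± 0.30 (adjusted p = 0.0363). Ifit1 (−1.83), Ifit3 (−1.81), Oasl2 (−1.42) and Rsad2 (−1.41) had larger falls than some of the called members but did not pass.

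Without vehicle animal 1 no member was called in any of these 5 comparisons in limma. The medians were then −0.05, −0.47, −0.20, −0.14 and −0.32 in the order given, and 0, 12, 0, 0 and 6 members were at an unadjusted p under 0.05. The lowest adjusted p was 0.0672 (Irf9 after the higher dose, −0.50). Oas3 after the higher dose stood at −1.26 (adjusted p = 0.255) and Irf7 at −0.82 (adjusted p = 0.4). Nor was any member called when only the 2 groups of a comparison entered the fit with all 4 vehicle arrays. Leaving out vehicle animal 6, 7 or 8 in its place gave 22, 23 or 39 calls over the 4 dosed groups and 11, 12 or 25 in naive mice.

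**Figure D4:**
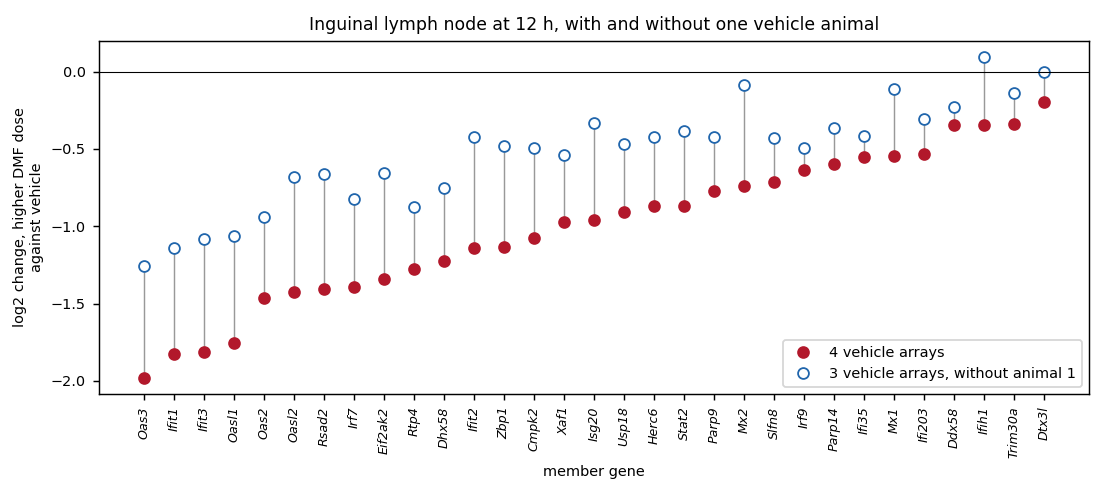
Log2 change of each of the 31 members in inguinal lymph nodes at 12 h, higher DMF dose against vehicle, with all 4 vehicle arrays (filled points) and without vehicle animal 1 (open points). Every filled point lies lower than its open point by the amount that the 1 animal adds, for Oas3 from −1.98 to −1.26 and for Irf7 from −1.40 to −0.82.

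The array of vehicle animal 1 was also highest for genes known to follow interferon-gamma. Ifng itself, made by T and NK cells, read 7.92 there and 2.76 to 4.48 on the other 35 arrays. The chemokines Cxcl10 and Cxcl9 read 11.58 and 11.41 against at most 10.04 and 9.26, and the GTPase gene Gbp2 10.38 against at most 9.0. The cytotoxic granule gene Gzma read 9.67 against at most 8.5 and the RNA sensor Tlr7 8.83 against at most 7.90. Gzma is from a list of 6 NK cell genes and Tlr7 from one of 10 sensors and adaptors. Another gene of the NK cell list, Klrd1, was called higher in naive mice than in vehicle. The type I interferon genes Ifnb1, Ifna2 and Ifna4 were at the floor of 2.18 on all 4 vehicle arrays. Of the 12 interferon-gamma genes, 9 were called lower after the higher dose, 5 after the combination, 11 in naive mice, and 1 each after the lower dose (Irf1) and the MEF salts (Gbp2). Without animal 1 these counts were 1 (Irgm2), 0, 2 (Iigp1, Irgm2), 0 and 0.

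Mast cell genes moved in these nodes as well: 4 of 5 (Cma1, Cpa3, Mcpt4, Tpsb2) were called higher than vehicle after the lower dose, the higher dose, the MEF salts and in naive mice. Their mean level, over all 5 genes, was 3.64 to 6.43 in vehicle and 6.51 to 7.29 after the higher dose. In animal 7 the 4 genes read 2.73 to 3.04, near the floor, against 4.28 to 5.79 in animal 1, so the low vehicle array for these genes was another animal. Without animal 1, 4 of 5 were called higher after the higher dose and in naive mice, 2 after the MEF salts (Cma1, Tpsb2) and 0 after the lower dose. The B cell list (11.30 to 11.54 in vehicle, 11.40 to 11.55 after the higher dose) and the T cell list (10.84 to 11.09 and 10.97 to 11.07) overlapped between the groups. The part of these lists in the result was not tested.

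Within the groups of inguinal nodes the members rose and fell together. Over the 36 arrays at 12 h, each centred on its group mean, the median correlation between 2 members was 0.87, and that of single members with the median of the set ran from 0.75 (Eif2ak2, Dtx3l) to 0.97. The arrays share 1 normalization, and these correlations describe this organ and time without a test. The 8 other genes most like the median of the members were Slfn5 (r = 0.97), Ifit1bl1 (0.96), Oas1g (0.95), Rnf213 (0.95), Gm9706 (0.94), Tor3a (0.94), Mitd1 (0.94) and Irgm1 (0.93), over 36 arrays. Without vehicle animal 1 they ran from 0.92 to 0.96 over 35 arrays. The median SD of a member within groups was 0.603 there, against 0.141 for all genes, and 26 of the 31 members lay above the 90th percentile of all genes in SD. At 6 h in the same organ these values were 0.323 and 0.107, with a median correlation of 0.73.

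At 6 h no member was called in inguinal nodes in 124 tests with limma, and none was at an unadjusted p under 0.05. After the MEF salts all 31 members were above 0 (median 0.20), with per-array medians of 8.20 to 9.12 against 8.17 to 8.78 in vehicle.

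Mesenteric lymph nodes, which drain the gut, showed few changes of members. At 6 h Ifi203, an interferon-inducible gene of the DNA-binding HIN-200 family, lay between 7.99 and 8.48 in vehicle and between 7.41 and 8.14 after the higher dose. It fell by 0.43 ± 0.10 (adjusted p = 0.0119, where 0.076% of all genes were called lower), a call that was lost without vehicle animal 56. At 12 h after the higher dose Isg20 rose by 0.34 ± 0.12 (adjusted p = 0.0431, 8.98% of all genes higher), while Irf9 and Parp14 fell by 0.21 ± 0.07 each (4.84% lower). None of these calls was made with only the 2 groups in the fit. In naive mice Isg20 (0.34 ± 0.12), Ifih1 (0.37 ± 0.12) and Dtx3l (0.18 ± 0.06) were higher, against 13.4% of all genes, and Stat2 (−0.36 ± 0.11) and Herc6 (−0.30 ± 0.11) lower, against 11.1%. Both shares of the members were below those of all genes. Irf7, Ifit1, Oasl2 and Usp18 passed in no comparison of this organ. Their changes in dosed mice ran from −0.46 to 0.05, −0.32 to 0.23, −0.19 to 0.10 and −0.20 to 0.02.

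In spleen at 6 h members moved both ways after the higher dose, with 3 called higher (16.6% of all genes) and 2 lower (6.4%). The share of the members was below that of all genes for the higher calls and near it for the lower calls. Isg20 lay between 9.04 and 9.91 (median 9.26) on the 8 vehicle arrays and between 9.87 and 11.48 (median 10.07) on the 7 of the higher dose, so the groups met only at their edges. It rose by 1.11 ± 0.31 (adjusted p = 0.00527), the largest rise of a member in any dosed group of any organ. Irf7 rose by 0.38 ± 0.14 (adjusted p = 0.0446; 7.67 to 8.31 in vehicle, 8.0 to 8.64 after the dose) and Ifih1 by 0.39 ± 0.11 (adjusted p = 0.00714).

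Stat2 fell by 0.33 ± 0.07 after the higher dose (adjusted p = 0.000349) and by 0.32 ± 0.08 after the combination (adjusted p = 0.0215). Ifi203 fell by 0.39 ± 0.10 (adjusted p = 0.00369) and 0.57 ± 0.12 (adjusted p = 0.00672), and its arrays overlapped vehicle (8.58 to 9.01) in neither group (8.19 to 8.54 and 8.02 to 8.54). Stat2 after the combination, 6.95 to 7.11, also lay wholly below vehicle, 7.17 to 7.47. Over all genes 1.31% were called lower after the combination. With the span of animal numbers as a block, Stat2 after the combination stood at −0.18 (adjusted p = 0.566) and Ifi203 at −0.58 (adjusted p = 0.143). After the higher dose Irf7 then stood at 0.21 (adjusted p = 0.386) and Ifih1 at 0.30 (adjusted p = 0.0754), while Stat2 (−0.26), Ifi203 (−0.41) and Isg20 (1.09) passed. The interferon genes Ifnb1 and Ifna4 were called higher after the combination, 2 of 7, by only 0.0333 and 0.012 on the log2 scale. Changes this small are not read as a rise of these genes. After the MEF salts Trim30a, a regulator of Toll-like receptor signalling, fell by 0.18 ± 0.05 (2.52% lower). Ifit1, Oasl2 and Usp18 passed in no dosed comparison of spleen, with changes from −0.27 to 0.07, −0.22 to 0.41 and −0.31 to 0.13. The median of the members after the higher dose at 6 h was 0.08, and −0.02 after a further quantile normalization, so the set had no settled direction there.

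Cell type markers differed between the same spleens. Pancreatic acinar genes were lower after the higher dose in 4 of 5 (by 4.44 to 5.44), with a mean level of 3.55 to 12.29 in vehicle and 3.67 to 3.94 after the dose. Neutrophil genes were higher in 4 of 5 (mean level 9.53 to 10.41 against 8.76 to 9.77), monocyte and macrophage genes in 3 of 5 (9.83 to 10.09 against 9.39 to 9.92), and the erythroid gene Alas2 by 1.11 ± 0.37. Without the arrays that held acinar RNA, only Stat2 was called at 6 h (−0.35 after the higher dose, adjusted p = 0.0155). Isg20 then stood at 0.92 (adjusted p = 0.105), Irf7 at 0.47 (adjusted p = 0.0732), Ifih1 at 0.38 (adjusted p = 0.116) and Ifi203 at −0.36 (adjusted p = 0.113). Among the 8 vehicle arrays at 6 h, those of animals 52, 54, 56, 57 and 58 were left out, so far fewer vehicle arrays remained. Whether the calls were lost through the fewer arrays or through the acinar RNA was not tested. The part of neutrophils and monocytes in these changes was not tested.

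At 12 h in spleen the clearest change was that of Parp14 after the higher dose, from 10.61 to 10.82 on the 7 vehicle arrays to 10.15 to 10.55 on 8 arrays, without overlap. It fell by 0.29 ± 0.05 (adjusted p = 0.00223), and 0.105% of all genes were called lower in that comparison. All 31 members were below 0 (median −0.18), and 12 were at an unadjusted p under 0.05. After the MEF salts Trim30a fell by 0.22 ± 0.06 (adjusted p = 0.0306, 0.509% lower). Neither call was made with only the 2 groups in the fit. Without the arrays with acinar RNA, Trim30a stood at −0.22 (adjusted p = 0.129).

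The 3 naive spleens had 6 members higher than vehicle (10.3% of all genes) and 1 lower (8.05%). Irf7 read 8.22, 8.58 and 8.61 in naive mice and 7.31 to 8.10 in the 7 vehicle mice, higher by 0.77 ± 0.19 (adjusted p = 0.00224). Ifit3 was higher by 0.78 ± 0.18 and Oasl1 by 0.65 ± 0.17, and Slfn8, Parp9 and Ifi35 by 0.27 to 0.37. Trim30a was lower by 0.38 ± 0.07 (10.92 to 11.27 against 11.35 to 11.60). Without naive animal 41 the number of calls was 3. The interferon gene Ifna1 was also higher (0.66 ± 0.24, 1 of 7), as were the receptor genes Ifnar1 (0.32 ± 0.07), Ifnar2 (0.22 ± 0.08) and Ifngr1 (0.24 ± 0.07), 3 of 9 receptor and signalling genes.

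In brain, 1 of the 124 member tests at 6 h passed: Ifit2 rose by 0.31 ± 0.08 after the higher dose (adjusted p = 0.0168, 5.61% of all genes higher), from 6.33 to 7.03 in vehicle to 6.71 to 7.14, and the groups overlapped. At 12 h none passed in dosed mice in limma, with 11 at an unadjusted p under 0.05, and Irf9 was lower in naive mice by 0.33 ± 0.10 (adjusted p = 0.0462, 1.11%). Both calls were lost with only the 2 groups in the fit. Irf7 in brain stayed between −0.04 and 0.06 of vehicle over the 8 dosed comparisons, Ifit1 between −0.23 and 0.06, Oasl2 between −0.24 and 0.08 and Usp18 between −0.36 and 0.11.

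In whole blood no member passed at 6 h in limma, with 8 at an unadjusted p under 0.05. At 12 h the medians of the members were −0.18 to −0.32 in the 4 dosed groups and −0.17 in naive mice, and 44 of 124 dosed tests had an unadjusted p under 0.05. Only Slfn8 after the higher dose passed, with a fall of 0.61 ± 0.14 (adjusted p = 0.0352, 0.0585% of all genes lower), from 9.10 ± 0.30 (SD, n = 7) to 8.5 ± 0.26 (SD, n = 6). Its arrays spanned 8.56 to 9.46 in vehicle and 7.99 to 8.73 after the dose. With only the 2 groups in the fit it did not pass (adjusted p = 0.516). Irf7 in blood was at −0.88 after the higher dose (adjusted p = 0.056), with arrays of 7.73 to 9.01 against 8.78 to 10.05. Oasl2 was at −0.96, Ifit1 at −0.68 and Usp18 at −0.57 in the same comparison, and none passed. All these groups share the 7 vehicle arrays.

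The compounds were compared directly where the design allowed, the higher DMF dose against the lower dose and against the MEF salts, with p-values adjusted over all genes of each of the 28 comparisons. The doses differ (179.2 against 100 and 79.2 mg/kg), so a difference is between these doses and not at matched exposure. Of 868 member tests 18 passed, 7 higher and 11 lower after the higher DMF dose. A larger share of all gene tests passed, 4.11%, so the members differed less often than genes in general.

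Against the MEF salts in kidney at 6 h, the diester at the higher dose had more Oasl2 (by 0.35 ± 0.08, adjusted p = 0.000817), Dtx3l (0.29 ± 0.07, adjusted p = 0.000539) and Rsad2 (0.16 ± 0.05, but −0.0348 with the mean of its probe sets), and less Ifit3 (−0.24 ± 0.08) and Dhx58 (−0.27 ± 0.08). Ifit3 did not overlap between the 2 groups. At 12 h in kidney Ifit3 (−0.30 ± 0.08) and Parp14 (−0.23 ± 0.07) were lower. In mesenteric nodes at 12 h Parp9 was lower (−0.29 ± 0.07, adjusted p = 0.00114; 8.52 to 8.97 against 8.82 to 9.11), Oas3 lower (−0.77 ± 0.25) and Dtx3l higher (0.18 ± 0.06). In spleen Ifit3 (−0.40 ± 0.13) and Stat2 (−0.21 ± 0.07) were lower and Dtx3l higher (0.15 ± 0.05) at 6 h, and Parp14 lower (−0.24 ± 0.05) at 12 h. Without the arrays with acinar RNA, Stat2 stood at −0.20 (adjusted p = 0.0669) and Parp14 at −0.24 (adjusted p = 0.0855). In brain Ifit2 was higher at 6 h (0.30 ± 0.08). With only the 2 groups in the fit, Rsad2 and Dhx58 in kidney at 6 h and Ifit3 and Parp14 in kidney at 12 h did not pass. Nor did Dtx3l in mesenteric nodes, Stat2 and Parp14 in spleen, or Ifit2 in brain.

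Against the lower DMF dose, Dtx3l was lower in jejunum at 12 h (−0.26 ± 0.06, adjusted p = 0.037), at 11.69 to 11.94 against 11.94 to 12.21 without overlap. Stat2 was lower in spleen at 6 h (−0.28 ± 0.07, adjusted p = 0.0152) and Ifih1 higher in brain at 6 h (0.45 ± 0.13, adjusted p = 0.0252). With only the 2 groups in the fit, none of these passed: Dtx3l was at adjusted p = 0.117, Stat2 at 0.247 and Ifih1 at 0.0673. In inguinal nodes, where the vehicle arrays do not enter this comparison, no member differed between the higher dose and the lower dose or the MEF salts in limma. At 12 h 7 members had an unadjusted p under 0.05 against the lower dose and none against the salts, and all 31 members were below 0 in both.

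The change from vehicle at 12 h was tested against that at 6 h for each dosed group. Of 868 member tests 10 passed, against 1.28% of all gene tests. After the higher dose Rsad2 in jejunum went from 0.02 at 6 h to −0.98 at 12 h (difference −1.0 ± 0.25, adjusted p = 0.0143), and Mx1 from 0.28 to −0.64 (−0.92 ± 0.25, adjusted p = 0.0245). Without the 4 arrays rich in Hox genes these stood at −0.82 (adjusted p = 0.103) and −0.56 (adjusted p = 0.285). In spleen Oas2 went from 0.41 to −0.54 (−0.96 ± 0.25, adjusted p = 0.0122), and the effect on Dtx3l differed by −0.25 ± 0.07 (adjusted p = 0.0309). Without the arrays with acinar RNA, Oas2 stood at −1.0 (adjusted p = 0.0464) and Dtx3l at −0.25 (adjusted p = 0.11). In kidney Oasl2 went from 0.18 to −0.21 (−0.39 ± 0.12, adjusted p = 0.0329). In brain the sensor gene Ddx58 (RIG-I) went from 0.24 to −0.25 (−0.49 ± 0.13, adjusted p = 0.0344).

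Other kidney members moved toward vehicle with time. Dtx3l after the MEF salts went from −0.31 to 0.02 (difference 0.32 ± 0.10, adjusted p = 0.0292), and Parp9 after the combination from −0.37 to 0.11 (0.47 ± 0.12, adjusted p = 0.0119). In inguinal nodes the effects of the higher dose on Stat2 (−0.98 ± 0.29) and Zbp1 (−1.29 ± 0.37, both at adjusted p = 0.0365) differed between times with vehicle animal 1. Without it they stood at −0.50 (adjusted p = 0.397) and −0.64 (adjusted p = 0.4).

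The numbers of the titles recur across organs and are read here as animals. It could thus be asked whether an animal high in these genes in an organ was high in another. For Irf7, Ifit1, Oasl2 and Usp18, values were centred on their group means and correlated between organs over animals, with 100000 permutations within groups. Of 84 relations 63 were positive, and 11 passed an adjusted p of 0.05, all positive and all among kidney, mesenteric nodes, spleen and blood. For inguinal nodes, jejunum and brain 0 of 24 relations each passed. None of these had an unadjusted p under 0.05 for r, and 1 did for rho (Ifit1 in inguinal nodes and brain, rho = −0.248, permutation p = 0.0443, adjusted p = 0.233, over 72 animals).

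The closest relation was that of Oasl2 in spleen and blood, with r = 0.68 and rho = 0.62 over 64 animals (permutation p = 1e-05, the smallest these permutations give, adjusted p = 0.00028 and 0.00042). It was 0.76 at 6 h and 0.56 at 12 h, and 0.66 without the 2 animals farthest from the median. With the span of the animal number taken out as well, r was 0.74. Usp18 in spleen and blood had r = 0.55, Ifit1 in kidney and spleen r = 0.57 over 67 animals, Irf7 in kidney and spleen r = 0.52, and Usp18 in kidney and spleen r = 0.47. Irf7 between mesenteric nodes and spleen went from r = 0.40 to 0.12 with the span taken out, and between kidney and mesenteric nodes from 0.36 to 0.25. For the median of all members r was 0.58 between spleen and blood and −0.03 to 0.07 between inguinal nodes and any other organ, given as a description. The last range pools times that differ: with spleen r was 0.34 at 6 h and −0.10 at 12 h, with blood 0.23 and −0.04, and with brain −0.33 and 0.25.

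**Figure D5:**
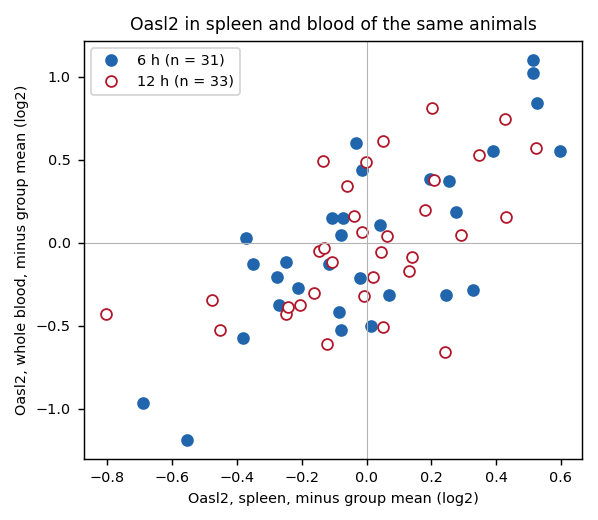
Oasl2 in whole blood against Oasl2 in spleen, for arrays with the same animal number. Each value is the log2 level minus the mean of its group, with 31 animals at 6 h (filled) and 33 at 12 h (open). Animals high in spleen tend to be high in blood at both times (r = 0.76 at 6 h and 0.56 at 12 h).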

How the data were processed

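RNA was measured on 1-colour Affymetrix mouse arrays with 45141 probe sets. The deposited values are log2 levels made by the authors. The submitters' processing notes name limma 3.4.5, R 2.11.1, GCRMA and RMA, and give neither role nor order. Of the probe sets, 28898 named 1 gene, 551 several and 15588 none, and 104 were controls. Only those naming 1 gene were used. No arrays were identical. All groups of an organ entered 1 limma fit (version 3.58.1, R 4.3.3) without a block, with 17 contrasts. Correlations used Python 3.11.15 and scipy 1.17.1. The fit was tested on simulated data. In every organ Irf7, Isg15 (not measured), Ifit1, Oasl2 and Usp18 were to be named, with the called members or, where over 6 were called, the 6 of largest change. Other members shown were chosen after their values were seen. The members and lists were chosen with earlier results of these data known. Alternatives were the mean of probe sets, dim genes left out, quantile normalization, another variance model, only the 2 groups of a contrast, the animal number (spans of 4 within runs of 12 numbers) as a block, and arrays left out. Leaving out vehicle animal 56, and the 3 other treatments of the correlations between organs, were chosen after seeing the data. Array numbers per group limit the precision.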

Additional observations from a re-analysis of the deposited data

Results flagged for a closer look

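In each group of 4 to 10 arrays, the highest and lowest array were set against the rest by Dixon's criterion for the median of the members and for the members whose single arrays are described. Of 137 group values 18 held an outlying array, 11 high and 7 low, and chance alone marks about 1 group in 20. Vehicle animal 1 of inguinal lymph nodes at 12 h, in a group of 4 arrays, did not meet the criterion. In that organ and time, naive animal 47 stood high in the median of the members (8.91), Irf7 (9.29), Ifit1 (8.91), Oasl2 (7.95) and Usp18 (10.34). In the same organ and time, animal 24 of the higher DMF dose stood low in Irf7 (6.48) and Oasl2 (5.37). Vehicle animal 56 at 6 h had the highest median of the members in mesenteric lymph nodes (8.72) and spleen (9.01), both outlying, and in blood (8.26). Other outlying medians were those of vehicle animal 1 in jejunum at 12 h (7.73, low), animals 20 (7.90, higher dose) and 31 (8.12, MEF salts) in mesenteric nodes at 12 h, and vehicle animal 55 in brain at 6 h (4.85). In kidney at 6 h Parp9 stood high in animal 68 (7.77) and Rsad2 low in animals 71 (10.68) and 51 (10.90). In spleen at 6 h Isg20 stood low in animals 65 (9.15, lower dose) and 80 (9.09, MEF salts).

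The effect differed between 6 and 12 h, by the test of the difference itself, in 10 of 868 member tests, where 1.28% of all gene tests passed, so their share is near that of all genes. The differences were −0.39 for Oasl2, 0.32 for Dtx3l and 0.47 for Parp9 in kidney, −1.0 for Rsad2 and −0.92 for Mx1 in jejunum, −0.98 for Stat2 and −1.29 for Zbp1 in inguinal nodes, −0.96 for Oas2 and −0.25 for Dtx3l in spleen, and −0.49 for Ddx58 in brain. Those of Stat2 and Zbp1 did not pass without vehicle animal 1 (adjusted p = 0.397 and 0.4).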

How the results depend on the processing

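Of 154 counts of called members under an alternative, 113 stayed within 1.5 times the count reported, 32 were lower and 9 higher. Of 144 single calls, 36 passed under every alternative run, and Rsad2 in kidney at 6 h, higher DMF dose against MEF salts, changed sign with the mean of all probe sets (−0.0348). The cause of these changes was not tested. With only the groups of a contrast in the fit, the counts in dosed mice were 12 and 7 in kidney at 6 and 12 h (19 and 10 reported), 0 and 5 in jejunum at 6 and 12 h (2 and 12), 0 and 0 in mesenteric nodes (1 and 3), 0 in inguinal nodes at 12 h (20), 13 and 0 in spleen (8 and 2), 0 in brain at 6 h (1) and 0 in blood at 12 h (1). In naive mice they were 3 in mesenteric nodes (5), 0 in inguinal nodes (13), 3 in spleen (7) and 0 in brain (1). Between doses or compounds there were 9 (18) and between times 6 (10). With dim genes left out there were 6 in naive kidney (11), 4 in jejunum at 6 h, 13 in spleen at 6 h, 0 in naive brain, 2 in blood at 12 h and 19 between times. A further quantile normalization gave 4 in jejunum at 6 h, and 0 in brain at 6 h and in naive brain. The mean of all probe sets gave 1 in spleen at 12 h, 2 in brain at 6 h and 0 in naive brain. The span of animal numbers as a block gave 0 in jejunum, mesenteric nodes and brain at 6 h, 3 in naive mesenteric nodes, 5 in spleen at 6 h, 2 in naive brain and 17 between times. Arrays left out gave 3 in jejunum at 12 h (Hox genes), 1 and 1 in spleen at 6 and 12 h (acinar genes), 0 and 0 in inguinal nodes at 12 h, dosed and naive (vehicle animal 1), and 0 in mesenteric nodes at 6 h (vehicle animal 56, chosen after seeing the data). Leaving out each array in turn in groups of at most 5 gave 18 to 20 in kidney at 6 h, 10 at 12 h and 11 in naive mice, 1 to 4 in jejunum at 6 h and 12 at 12 h, 0 to 39 in inguinal nodes at 12 h and 0 to 25 in naive mice, 8 to 9 in spleen at 6 h, 2 at 12 h and 3 to 7 in naive mice, 1 in blood at 12 h, 18 to 19 between doses or compounds and 8 to 26 between times. The count of 4 in jejunum at 6 h came without combination animal 89, and that of 26 without inguinal vehicle animal 8. No paired analysis was possible because the groups compared within an organ and time share no animal number. Members near the floor limit what can be seen in brain most.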

Other observations

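The animal whose inguinal nodes stood highest in the members, vehicle animal 1, had the lowest median of the members among the vehicle arrays of jejunum at 12 h (7.73).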
